A study of Caenorhabditis elegans with 2 samples.

Results

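Aminoacyl-tRNA synthetases join each amino acid to its tRNA, the step at which the genetic code is read into protein. Animals keep a cytosolic set and a mitochondrial set, both encoded in the nucleus, and in some cases 1 gene serves both. PBRM-1 is the polybromo subunit of PBAF, a chromatin remodeller that slides and evicts nucleosomes. The members were the 32 protein-coding genes of Caenorhabditis elegans whose symbol has the form of a 1-letter amino acid code followed by ars and a number, out of 19973 nuclear protein-coding genes in all. By that number 20 were taken as cytosolic and 12 as mitochondrial, with aars and vars turned round, since in worms aars-1 and vars-1 are the mitochondrial genes. A gene that serves both cannot be told by its number, and hars-1, for example, is the only histidine gene among the members. The rule missed glp-4 and Y105E8A.20, which RefSeq names a valine and a methionine synthetase. Both lie on chromosome I and neither was bound.

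The data came from chromatin immunoprecipitation and sequencing of whole young adult worms at 64.5 h, grown from synchronised, starved L1 larvae. There was 1 group with 2 biological replicates, both of the strain RW12226, whose pbrm-1 gene on chromosome I carries the allele st12226, a CRISPR insertion of TY1, EGFP and 3xFLAG. The immunoprecipitation used an antibody against GFP, and the labels name pbrm-1 as its target. With 1 group there is no condition to compare with another, and no test was run. An untagged group or control library was not used here. The series list, made by the authors from both replicates, held 3243 peaks, replicate 1 had 1370 of its own and replicate 2 had 2173. These lists give no read totals, so the depth behind them is unknown. Whole worms mix germ line and somatic nuclei, so a weak peak shared by many nuclei and a strong one in few nuclei cannot be told apart.

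A gene is called bound here when the summit of a peak lay from 1000 bp upstream to 200 bp downstream of any of its annotated transcript 5' ends. Distances below are from the summit to that 5' end, with negative values upstream. The authors' ranked lists also hold candidate peaks below the threshold, each with a score that restates its irreproducible discovery rate (IDR), and the lowest score in every thresholded list was 830, an IDR of 0.01. Of the 32 synthetase genes, 5 (15.6%) were bound in the series list, against 9.87% of all protein-coding genes. They were fars-3, hars-1 and mars-1, taken as cytosolic (3 of 20), and aars-1 and ears-2, taken as mitochondrial (2 of 12). In its own list replicate 1 held 1 synthetase gene (3.12%), against 4.63% of all genes, and replicate 2 held 2 (6.25%), against 7.63%. Only ears-2 was in both replicates' own lists (1 of 32, 3.12%), against 4.14% of all genes. The authors' conservative list of 2917 peaks, also made from both replicates, held 3 synthetase genes (9.38%), against 8.99% of all genes. The share of synthetase genes was above that of all genes in the series list, near it in the conservative list and below it in each replicate's own list, and each share rests on 5 genes or fewer.

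The genomic sequence around the summits of the bound genes is shown because 4 of the 5 genes face a neighbour across it. Each line gives the plus strand of the RefSeq copy of WBcel235, which is the ce11 assembly, cut at 120 bp from the summit or at the nearest annotated exon, with the 11 bases centred on the summit in capitals. The stretches are chrIV:390469-390559 for ears-2, chrII:8464513-8464675 for fars-3, chrII:11464498-11464661 for aars-1, chrIV:11635661-11635901 for mars-1 and chrIV:10858497-10858640 for the upstream summit of hars-1.
ears-2: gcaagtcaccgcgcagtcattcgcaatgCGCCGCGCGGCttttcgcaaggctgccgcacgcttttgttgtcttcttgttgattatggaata
fars-3: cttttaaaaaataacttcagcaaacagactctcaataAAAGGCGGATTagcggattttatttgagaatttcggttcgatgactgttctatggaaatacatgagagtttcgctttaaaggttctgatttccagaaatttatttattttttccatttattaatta
aars-1: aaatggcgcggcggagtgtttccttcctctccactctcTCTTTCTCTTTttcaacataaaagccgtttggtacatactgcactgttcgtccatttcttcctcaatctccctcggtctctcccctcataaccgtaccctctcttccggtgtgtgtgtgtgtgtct
mars-1: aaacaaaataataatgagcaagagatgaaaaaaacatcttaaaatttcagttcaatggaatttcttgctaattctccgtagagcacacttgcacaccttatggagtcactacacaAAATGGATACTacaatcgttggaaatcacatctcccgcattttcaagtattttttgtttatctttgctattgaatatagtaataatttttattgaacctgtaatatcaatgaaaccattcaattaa
hars-1: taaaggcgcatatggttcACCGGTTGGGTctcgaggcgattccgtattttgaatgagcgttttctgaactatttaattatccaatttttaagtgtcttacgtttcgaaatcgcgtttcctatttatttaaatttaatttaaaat

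The 5 stretches were unlike each other in composition. The ears-2 stretch was 53.8% G or C and its capitals hold only G and C, while the fars-3 and mars-1 stretches were 29.4% and 29.5% G or C and the hars-1 stretch 33.3%. The aars-1 stretch was 49.4% G or C, and 68.9% of its plus strand bases were C or T, the highest of the 5. For scale, the median was 42.8% over the 201 bp windows around all 1694 summits in promoter windows of the series list. Those windows were not cut at exons, while every stretch but that of mars-1 was, so the values are not of like sequence.

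ears-2, which charges mitochondrial tRNA with glutamate, had the strongest peak of the group. Its signal, the authors' own value per peak, was 193.8 in the series list, 75.2 in replicate 1 and 111.7 in replicate 2, each on the scale of its own list. It ranked 408th of 3243 in the series list, 472nd of 1370 in replicate 1 and 421st of 2173 in replicate 2. The gene lies on chromosome IV (388686 to 390468, minus strand), and the peak at chrIV:390426-390529 was 104 bp wide, against a median of 320 bp for the list. Its summit lay at -34 bp from the ears-2 5' end and at -58 bp from that of uncp-18, named a syntaxin-binding protein by RefSeq, and the whole gap between the transcripts is the 91 bp printed above. The summits lay at -34 bp in replicate 1 and at -35 bp in replicate 2. There the peak was 284 bp and 296 bp wide, each the median width of its list. The peak's q value, from the authors' peak caller, was 0.000791. A peak in so short a gap cannot be given to 1 of the genes.

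fars-3 encodes the beta subunit of cytosolic phenylalanyl-tRNA synthetase and lies on chromosome II (8464848 to 8467072, plus strand). Its peak at chrII:8464395-8464714 had a signal of 80.4 and ranked 2067th of 3243. The replicates differed: replicate 2 held it in its own list with a signal of 65.1, while replicate 1 had a candidate there with a signal of 24.6 and a score of 92, far below the threshold. The series summit lay at -293 bp from fars-3 and 43 bp past the end of zyg-9, a microtubule regulator gene transcribed in the same direction. The alpha subunit gene fars-1 on chromosome I was not bound. Its strongest candidate had a signal of 59.5, a score of 121 and its summit at -862 bp.

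aars-1 charges mitochondrial tRNA with alanine and lies on chromosome II (11460205 to 11464497, minus strand). The peak at chrII:11464381-11464700 had a signal of 77.8 and ranked 2183rd, with its summit at -44 bp from aars-1 and at -353 bp from rga-1, a gene on the other strand. Neither replicate's own list held it. The candidate at this place had a signal of 43.8 and a score of 662 in replicate 1, and a signal of 41.3 and a score of 164 in replicate 2. Both were below the threshold, replicate 2 by far more.

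mars-1, the cytosolic methionine enzyme, lies on chromosome IV (11631941 to 11635487, minus strand). Its peak at chrIV:11635621-11635940 had a signal of 71.6 and ranked 2461st, with the summit at -294 bp. It lay in a gap of 1160 bp that mars-1 shares with F58B3.6, and at -867 bp from the 5' end of that gene. The candidate at the same place had a signal of 34.5 and a score of 44 in replicate 1, and a signal of 42.2 and a score of 612 in replicate 2. Neither passed, and here replicate 1 was the further from the threshold.

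hars-1, the histidine enzyme, lies on chromosome IV (10858957 to 10861284, plus strand) and has 2 annotated 5' ends. It was the 1 member with 2 summits. The peak at chrIV:10858360-10858679 had a signal of 67.4, and its summit lay at -437 bp from hars-1 and at -24 bp from T11G6.2, a sugar phosphate exchanger gene on the other strand. The peak at chrIV:10859255-10859574 had a signal of 64.1 and its summit in a coding exon of hars-1, 98 bp downstream of the inner 5' end. These were the weakest of the 6 member peaks, with q values of 0.0787 and 0.121, both above 0.05. The strongest candidate was the inner site in replicate 1, with a signal of 28.8 and a score of 270, and the upstream site in replicate 2, with a signal of 42.0 and a score of 819, so the replicates did not favour the same site.

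**Figure D1:**
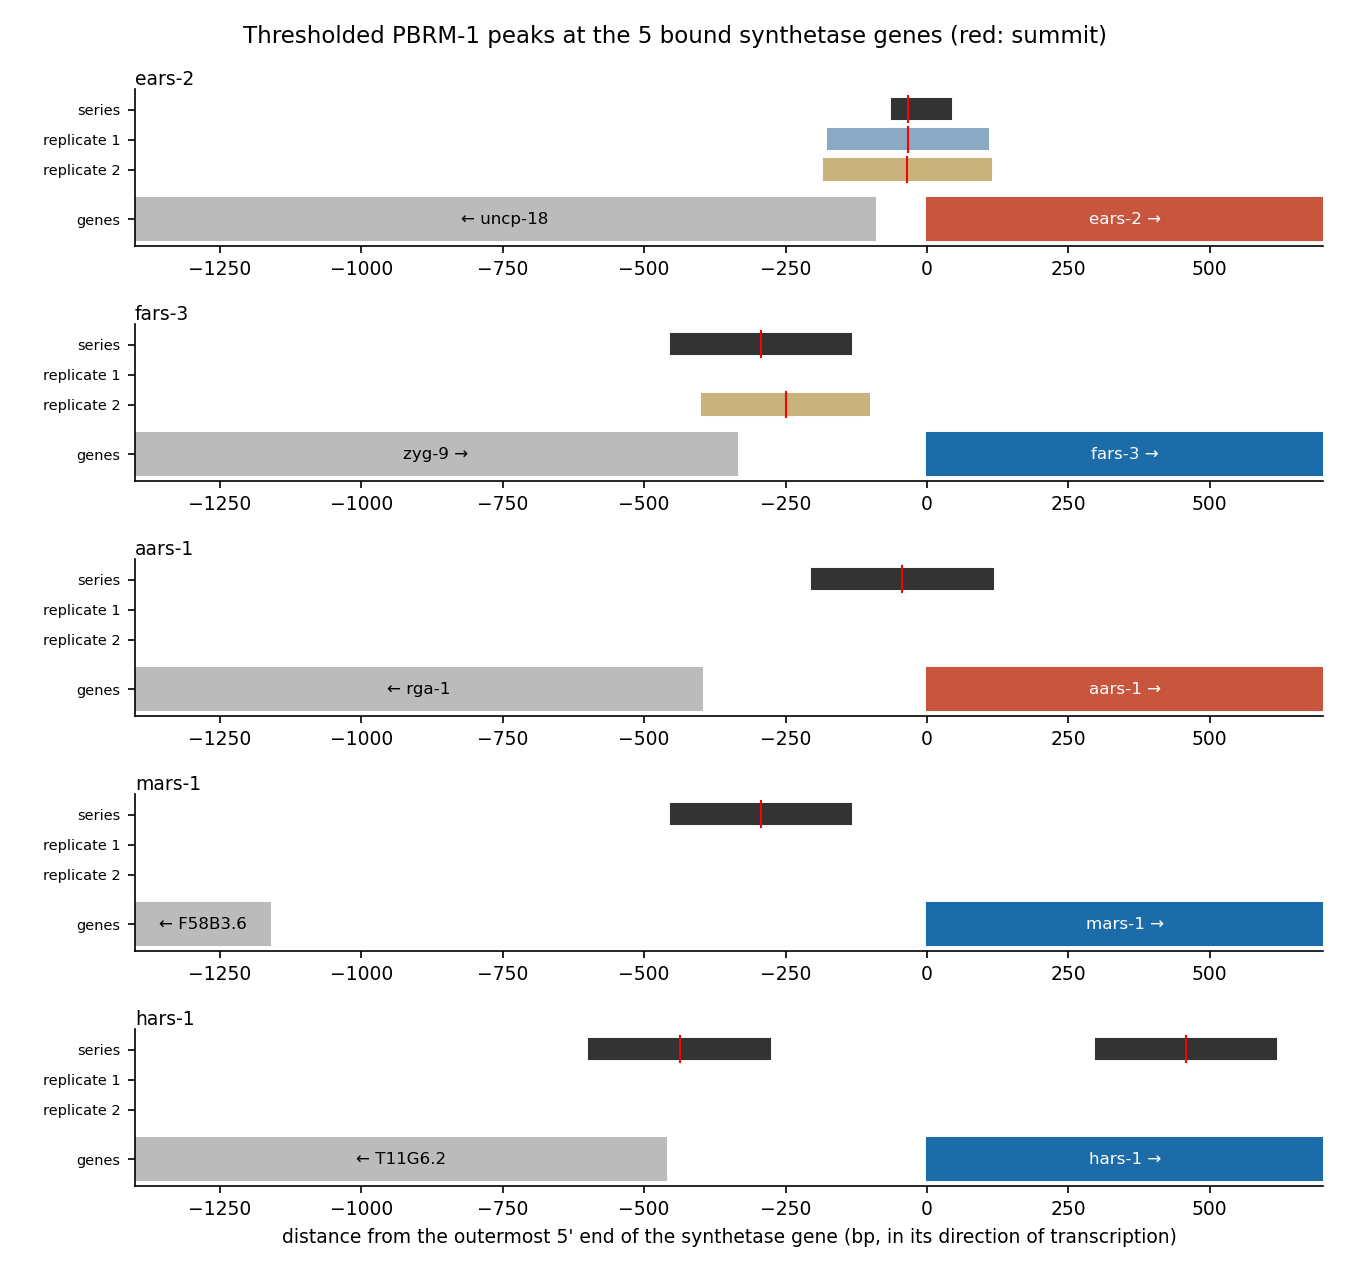
Thresholded peaks (bars) and their summits (red lines) at the 5 bound synthetase genes in the series list and in each replicate's own list, with the synthetase gene in colour (red mitochondrial, blue cytosolic), its neighbour in grey, and distance in bp from the synthetase gene's outermost 5' end on the horizontal axis. Only ears-2 has a bar in all 3 lists, fars-3 has one in the series list and replicate 2, and aars-1, mars-1 and hars-1 have bars in the series list alone.

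Against the rest of the bound genes, the synthetase peaks were mostly weak. Their median signal was 77.8, against 107 over all 1971 bound genes, and 1 of 5, ears-2, reached the list's median signal of 92.9, as did 60.9% of all bound genes. Of the 5 bound members, 3 were in neither replicate's own list, as were 23.2% of all bound genes, and 1 was in both, as were 41.6%. The median distance of the strongest summit from the 5' end was -293 bp in the bound members and -256 bp over all bound genes. A further gene's window held 5 of the 6 member summits, against 29.3% of the 1694 summits in promoter windows. Both hars-1 summits are among these 5. The shares are not alike: member summits were reached through a gene, which favours those in several windows, while the 29.3% counts each summit once. No member summit lay within 500 bp of any of the 612 annotated tRNA genes, and no window of a member held a tRNA gene, although 387 of the 3243 series summits lay that near to one. These shares were not tested.

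The 27 unbound members can be placed by the candidates of the ranked lists. A candidate stood in a window of 30 of the 32 members in the series ranked list, against 66.0% of all genes. In replicate 1 it was 24 of 32, against 52.9%, and in replicate 2 it was 27 of 32, against 49.4%. The candidate signal was above 32.8, the median over all genes with a candidate, in 17 of the 30 members with one. In replicate 1, 15 of 24 were above the corresponding median of 20.03, and in replicate 2, 17 of 27 were above 22.8. By definition as many genes with a candidate lie above such a median as below it. The shares of all genes above these medians, 33.0%, 26.5% and 24.7%, therefore only repeat the candidate shares.

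Most unbound members were far from the threshold. Their strongest candidates had a median score of 98 in 25 genes, close to the median of 106 over all unbound genes with a candidate, and 18 had scores under 200. Scores of at least 540, an IDR of 0.05, were reached by 2 unbound members, against 3.71% of all genes that were unbound with such a score. gars-1, the glycine enzyme, scored 725 with a signal of 59.0 at chrIII:5162400-5162719, with its summit at -283 bp from the inner 5' end. Its candidate had a signal of 36.3 and a score of 162 in replicate 1 at that site, and a signal of 24.0 and a score of 259 in replicate 2 at another one. rars-2, the mitochondrial arginine gene, scored 562 with a signal of 64.2 at chrII:6125328-6125647, with its summit at -71 bp. Its candidate at the same place had a signal of 22.1 and a score of 44 in replicate 1, and a signal of 40.3 and a score of 212 in replicate 2. nars-1, the cytosolic asparagine gene, scored 555 in replicate 1 with a signal of 37.1, and in the series ranked list it had a score of 361 and a signal of 42.0. Its strongest candidate in replicate 2 lay elsewhere, with a signal of 17.6 and a score of 102. Below 540 in the series ranked list came rars-1 (506), the cytosolic arginine gene, qars-1 (504), for glutamine, and yars-2 (488), for mitochondrial tyrosine. Of the 2 genes outside the symbol rule, glp-4 had a candidate with a score of 691 and a signal of 54.3, above that limit. Y105E8A.20 had a candidate with a score of 312 and a signal of 47.8.

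The members with the least signal were spread over both compartments. No list held a candidate for yars-1, the cytosolic tyrosine gene, or for dars-2, the mitochondrial aspartate gene. fars-2, for mitochondrial phenylalanine, had a candidate in the series ranked list alone, with a signal of 14.9. The remaining unbound genes, from sars-1, the cytosolic serine gene (20.9), to qars-1 (62.4), overlapped in signal across cytosol and mitochondria. The median candidate signal was 42.0 in 19 cytosolic genes and 36.1 in 11 mitochondrial ones. In replicate 1 the medians were 25.4 and 19.5, and in replicate 2 they ran the other way, at 24.0 and 31.3.

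**Figure D2:**
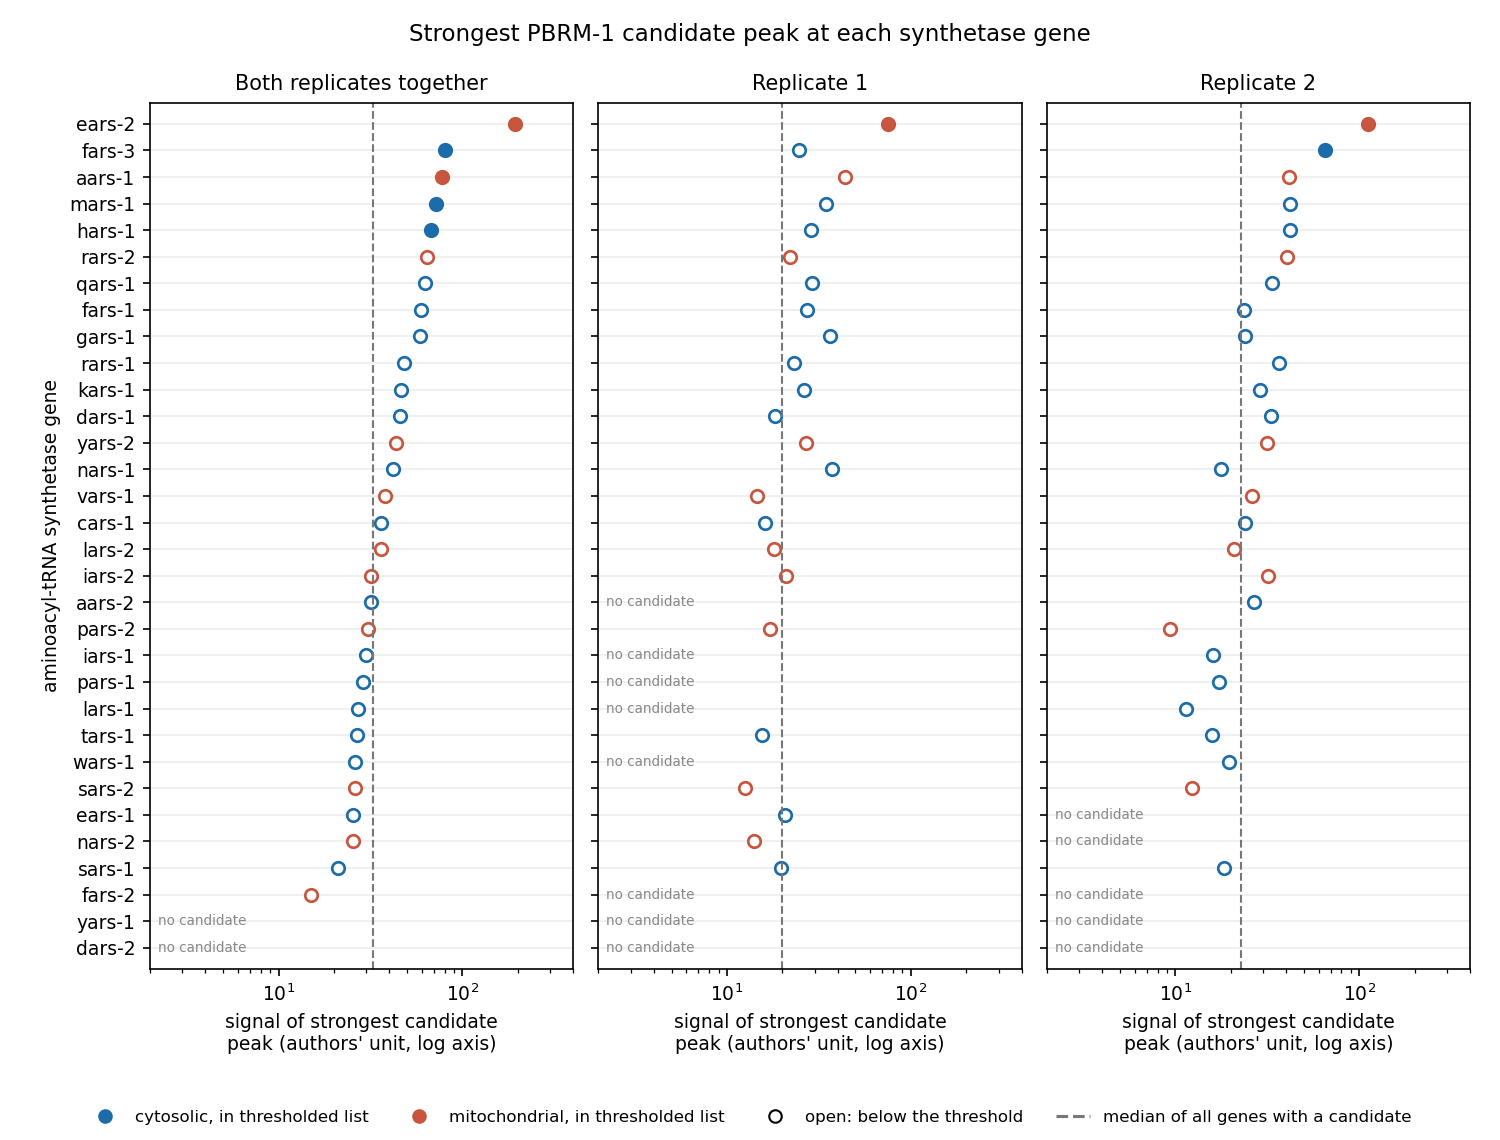
Signal of the strongest candidate peak in the windows of each of the 32 synthetase genes (log axis, the authors' unit) in the ranked list of both replicates together and of each replicate, with filled points for peaks in the matching thresholded list, open points for candidates below the threshold and a dashed line at the median of all genes with a candidate. ears-2 leads in every panel, 5 points are filled in the series list, 1 in replicate 1 and 2 in replicate 2, and yars-1 and dars-2 have no candidate.

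The replicates' strongest candidates did not always lie at the same place. Of the 22 members with a candidate in both replicates, the strongest ones of the replicates overlapped by at least 1 bp in 12 (54.5%), as they did in 67.9% of the 7515 such genes over the genome. They overlapped in ears-2, fars-3, aars-1 and mars-1 and did not in hars-1. The signal was higher in replicate 2 in 15 of the 22, and in 65.7% of all such genes.

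The candidates of the members were spread over the window. Of the 30 in the series ranked list, 15 had their summits within 200 bp of a 5' end, as did 40.7% over all genes, and 11 of these lay within 100 bp, as did 20.7%. On the upstream side beyond 100 bp, 12 lay up to 500 bp upstream, against 38.1%, and 4 lay further upstream, against 32.9%. The remaining candidates, of kars-1, nars-1 and iars-1, lay 101 to 189 bp downstream. The 4 far upstream were those of fars-1, rars-1, tars-1 and sars-1, all taken as cytosolic by their number.

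**Figure D3:**
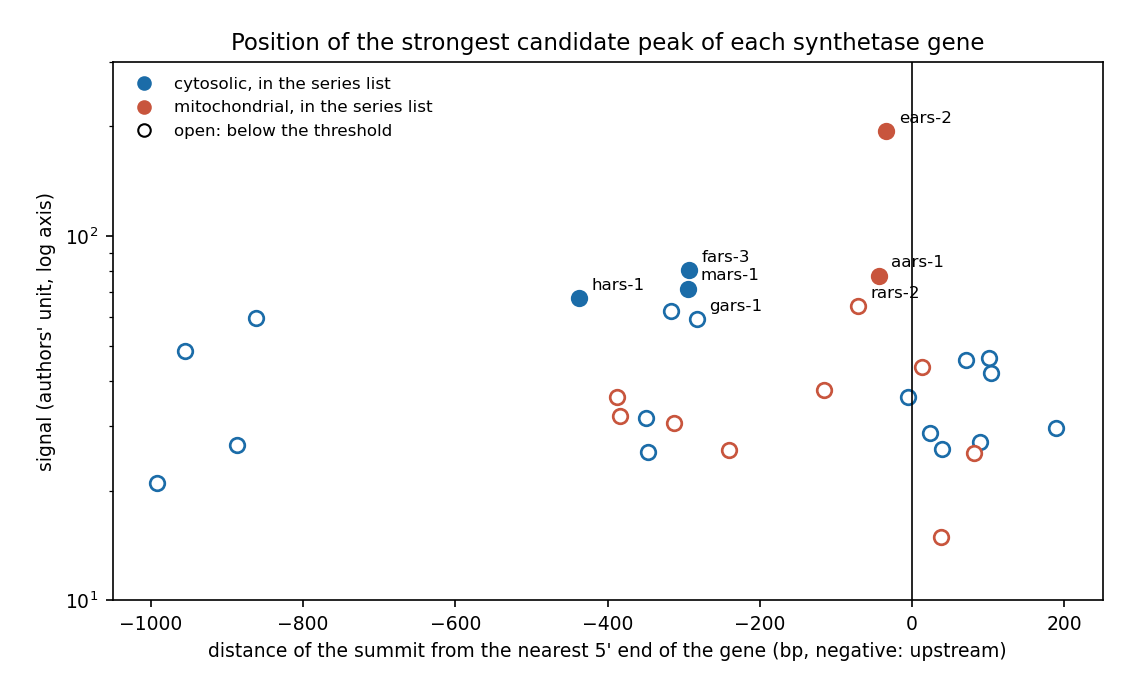
Distance of the strongest series candidate's summit from the nearest 5' end of its gene (bp, negative upstream) against its signal (log axis, the authors' unit) for the 30 synthetase genes with a candidate, with filled points for genes in the series list and names for those with a score of at least 540. ears-2 and aars-1 lie at -34 and -44 bp, while fars-3, mars-1 and hars-1 lie at -293, -294 and -437 bp.

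The genes' surroundings differed among members. The upstream neighbour was divergent, facing the member across a shared gap of any length, for 16 of 32 members and 42.2% of all genes. In the members that gap ran from 91 bp for ears-2 to 4824 bp for pars-1. Of these 16, 4 were bound, namely ears-2, aars-1, mars-1 and hars-1, and 13.3% of all genes with a divergent neighbour were bound. The upstream neighbour ran in the same direction within 500 bp for 10 members (31.2%) and 17.7% of all genes. Of these 10 members fars-3 was bound, and 9.85% of all such genes were. yars-1 and dars-2, which had no candidate, lay 109 bp and 113 bp downstream of such a neighbour. For yars-1 that neighbour is Y105E8A.20, the methionine synthetase gene outside the symbol rule. None of the 3 members with a distant tandem neighbour was bound, beside 5.84% of all such genes. None of the 3 with a 5' end inside another gene was, beside 8.41%. On chromosome II 2 of 5 members were bound, beside 8.99% of all genes there, and on IV 3 of 8 were, beside 10.4%. None of the 9 members on I was bound, beside 14.5% of all genes there, none of the 6 on III, beside 14.3%, and none of the 4 on V, beside 7.05%.

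Short motifs were searched on both strands in the 201 bp windows around the 6 member summits. TGATGNAAT is the core of the element through which ATF4 acts on synthetase genes in mammals. It was in 0 of 6 windows and in 0.826% of all 1694 summit windows in promoters. CTGCGTC (11.8% of those windows), CACGTG (5.79%) and TTCGCGC (7.20%) were also in 0 of 6. GAGAGA was in 1 of 6, the aars-1 window, and in 29.3% of all. GTTCGANNC, which matches the B box of tRNA genes, was in 1 of 6, the inner hars-1 window, and in 5.84% of all. In promoters cut from 250 bp before to 50 bp after the outermost 5' end, bound or not, TGATGNAAT was in 1 of 32 members, lars-1, and in 2.05% of 19973 genes. CTGCGTC was in 1, aars-1, and in 4.34%. CACGTG was in 1, hars-1, and in 5.82%. GAGAGA was in 7 (21.9%) and in 21.8%, while TTCGCGC (1.92%) and GTTCGANNC (1.58%) were in none of the members. With windows this few, the counts describe these letters alone.

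Other genes that handle charged or uncharged tRNA were bound in 9 of 25 cases, 5 in replicate 1 and 7 in replicate 2, beside 9.87%, 4.63% and 7.63% of all genes in these lists. The groups below are small, and their counts stand beside that same 9.87% of all genes in the series list. Of the carriers of charged tRNA 5 of 7 were bound, including all 5 cytosolic ones. eef-1A.1 (signal 249.996, shared with rfc-4) and eef-1A.2 (196.6) encode eEF1A, which brings charged tRNA to the ribosome, and both were in both replicates' lists. The pair are near-identical paralogs, so reads could be split between their coding parts. The summits lay at -390 and -392 bp, and how reads mapped at the pair was not tested. eef-1G (232.0, shared with ctf-4) and eef-1B.1 (156.4, shared with aco-2), subunits of the exchange factor that reloads eEF1A with GTP, were in both lists as well, while eef-1B.2 (71.3) was in neither. The mitochondrial carriers tufm-1 and tufm-2 were not bound.

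Of 3 genes for sensing uncharged tRNA, gcn-1 (91.1, in replicate 2 alone) was bound, and gcn-2, the kinase, and atf-4 were not. Of 12 tRNA modification genes 3 were bound. mtcu-2, for modification of mitochondrial tRNA, had a signal of 577.7 in the series list, 228.7 in replicate 1 and 348.0 in replicate 2 and ranked 39th of 3243. pus-1, a pseudouridine synthase gene, had 153.4 and was in replicate 2's list, and elpc-4, an Elongator subunit gene, had 18.4 and was in neither. The elpc-4 summit lay at -976 bp, near the far end of the window, and also in the window of C26B2.7. None of rtcb-1, xpo-3 and hpo-31, for tRNA ligation, export and end repair, was bound.

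In the series list 9.87% of all genes were bound. Beside the synthetase genes with 5 of 32, the translation factor genes were bound in 14 of 38 cases, which includes the eEF1 genes above. The mitochondrial ribosomal protein genes were bound in 14 of 70 and the cytosolic ones in 61 of 78. In the own lists of replicates 1 and 2, 4.63% and 7.63% of all genes were bound. There the translation factor genes had 9 and 11, the mitochondrial ribosomal protein genes 7 and 9, and the cytosolic ones 42 and 59. The median candidate signal in the series ranked list was 37.0 for 30 synthetase genes, 57.8 for 34 translation factor genes, 44.0 for 64 mitochondrial ribosomal protein genes and 117 for 76 cytosolic ones, against 32.8 over 13176 genes with a candidate. By share bound in the series list the synthetase genes lay between all genes and the mitochondrial ribosomal protein genes. In each replicate's own list their share, 3.12% and 6.25%, was below that of all genes. Their median candidate signal in the series ranked list was between those of all genes and the mitochondrial ribosomal protein genes, and nearer to all genes. In each replicate it was between them too, but nearer to the mitochondrial ribosomal protein genes. In replicate 1 it was 22.6, against 20.03 for all genes and 23.8 for the mitochondrial ribosomal protein genes. In replicate 2 it was 26.0, against 22.8 and 27.3. No difference between the lists was tested.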

How the data were processed

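Peak lists on ce11 were deposited for each of the 2 replicates and for both together, per the labels and the text deposited beside the lists. For the aligner and peak caller no name or version was found in the labels. Per the labels, chromatin was sheared by sonication to 200 to 800 bp. The authors deposited for each peak a signal of unstated scaling, a score that rises with −log2 of the IDR up to 1000, and −log10 of the caller's q-value and of the IDR. The summit is the deposited start plus the deposited offset. Genes came from Ensembl release 115 (WBcel235) and sequence from RefSeq. Analyses used Python 3.11.15 and pandas 2.3.3, and the window assignment was tested on simulated data.

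Members and lists were chosen with earlier results of these data known, so no list was tested. Genes were named by rule: every member, full values for bound members and for unbound ones with a replicate summit or a candidate score of at least 540, neighbours sharing a member's summit, and bound pathway genes; the unbound pathway genes named were added after their values were seen. Alternatives covered the peak list, window, summit, assignment, signal, q and tRNA genes. The second series-level ranked list was not used. Replicates are biological replicates per the labels.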

Additional observations from a re-analysis of the deposited data

How the results depend on the processing

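The count of 5 bound synthetase genes came out the same with the short window (500 bp upstream to 100 bp downstream), with peak midpoints, with every summit assigned to the nearest gene alone, with outermost 5' ends, without summits near tRNA genes and with glp-4 and Y105E8A.20 added after seeing the data. The share of all genes bound was 7.57% with the short window, 9.87% with midpoints and 7.69% with nearest genes. It was 9.14% with outermost 5' ends and 9.40% without summits near tRNA genes. The synthetase count was 4 with q at or below 0.05, without hars-1, beside 8.52% of all genes. With 2000 bp upstream it was 6, where iars-2 joined, beside 12.9%. It was 3 in the conservative list (aars-1, ears-2 and mars-1), beside 8.99% of all genes. Among peaks at or above the median signal it was 1 of 32 (ears-2), beside 6.01%. Leaving out a replicate here means taking the other's own list, so its counts repeat those given above. It gave 1 to 2 in all, 0 to 1 cytosolic and 1 to 1 mitochondrial genes. Cytosolic genes were 1 in the conservative list and 0 at or above the median signal, and mitochondrial ones were 1 there and 1 by suffix alone. The median signal was 193.8 at or above the median signal and 75.2 to 88.4 without a replicate. The median distance was -44 bp in the conservative list and with nearest genes, -34 bp at or above the median signal, -168.5 bp with the q limit and -142.5 to -34 bp without a replicate. With nearest genes the upstream hars-1 summit went to T11G6.2, and in the others fewer members were left. The other pathway genes, in alternatives chosen after seeing the data, numbered 5 to 7 without a replicate and 6 to 9 elsewhere. Beside these stood 4.63% to 7.63% and 6.01% to 12.9% of all genes. ears-2 alone was bound in both replicates under all 4 alternatives tried for that count, beside 3.12% to 5.63% of all genes. No paired analysis was possible because there is 1 group. Read depth is unknown, so a weak candidate cannot be told from one limited by depth.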
